A study of Mus musculus with 6 samples.

Results

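The mRNA levels of 10 genes of autophagy were followed in murine bone marrow–derived macrophages (BMDMs): *Sqstm1*, *Map1lc3a*, *Map1lc3b*, *Gabarap*, *Gabarapl1*, *Becn1*, *Ulk1*, *Wipi1*, *Atg5*, and *Atg7*. They were taken by name, as the array spots annotated with these symbols, from 34844 gene names on the array, and they are read by 16 probes. BMDMs are macrophages grown from bone marrow cells, here for 7 days in medium conditioned by L929 fibroblasts, from wild-type female C57BL/6 mice that the labels give as 6 to 8 weeks of age. The methods of the study name the mice C57BL6/J and give an older range. Of the 3 groups, untreated cells received no stimulus, LPS cells received lipopolysaccharide, the bacterial ligand of TLR4, for 4 h, and LPS+USP7i cells received HBX41,108, a small molecule inhibitor of the deubiquitinase USP7, at 10 μM from 30 min before the same LPS treatment. The LPS dose is 100 ng/ml in the series description and 100 ng/μl in the sample labels, and the sources used here do not say whether LPS cells received the solvent of the inhibitor, so an effect of the solvent cannot be told apart from that of the inhibitor. There were 2 arrays for each group, described as samples of independent experiments, and no group received the inhibitor without LPS.

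Autophagy encloses cytoplasm, organelles, or bacteria in a double membrane, the autophagosome, which then fuses with lysosomes. The ULK1 kinase complex starts the process, the class III PI3-kinase complex around Beclin 1 (*Becn1*) marks the growing membrane with a lipid that WIPI1 binds, and ATG7 and ATG5 belong to the machinery that couples the ubiquitin-like ATG8 proteins (LC3A, LC3B, GABARAP, and GABARAPL1) to that membrane. The product of *Sqstm1*, p62, is a cargo receptor that binds both ubiquitin and ATG8 proteins and is degraded with its cargo. p62 also binds KEAP1, the adaptor that marks the transcription factor NRF2 for degradation, and *Sqstm1* is itself a known target gene of NRF2. In macrophages, autophagy is known for removing bacteria and damaged mitochondria and for restraining inflammasomes. The arrays measured mRNA and not the autophagic process.

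The 6 arrays were 1-color Agilent arrays on 1 slide read in 1 scan, with 25002 to 27467 of 59305 non-control spots well above background and 0 saturated spots. The groups lay at places 1 (untreated), 2 (LPS), and 4 (LPS+USP7i) of one direction of the slide, so slide position and treatment cannot be told apart, and the number of arrays limits the precision. All 16 probes were well above background on all 6 arrays. As a check on the stimulus, the cytokine gene *Tnf* rose by 7.63 on the log2 scale with LPS (standard error 0.12, adjusted p = 0.00150). All 7 macrophage markers, among them *Adgre1*, *Csf1r*, and *Cd68*, were well above background on all arrays. Their summed signal was 661529 and 675507 (untreated), 560878 and 566102 (LPS), and 506717 and 560138 (LPS+USP7i), and 2 of them passed, 1 with LPS and 1 with the inhibitor. The integrin gene *Itgam* fell by 0.65 with LPS (standard error 0.10, adjusted p = 0.0237), and the Fc receptor gene *Fcgr1* fell by 1.61 with the inhibitor (standard error 0.22, adjusted p = 0.0318). None (0) of 5 stromal and 0 of 4 red cell markers was well above background on all arrays, against 2 of 5 B cell, 2 of 5 T cell, and 4 of 5 neutrophil and progenitor markers. The red cell marker *Epor* was well above background on both untreated arrays and 0 of the others, and its adjusted p was 0.0387 with LPS. The summed B cell signal was 668 and 1057 (untreated), 533 and 1156 (LPS), and 314 and 714 (LPS+USP7i). *Pax5* was well above background on both LPS+USP7i arrays and 0 of the others, and its adjusted p was 0.0244 with the inhibitor. The summed signal of neutrophils and progenitors lay between 4115 and 4683, where *Elane* had log2 signals of 11.09 to 11.90. With the inhibitor 4 of these 5 markers had negative differences that did not pass, among them *Mpo* (−1.996, adjusted p = 0.459) and *Camp* (−1.72, adjusted p = 0.444), which had 2.06 with LPS (adjusted p = 0.280). *Mpo* and *Ltf* also differed between replicates of a group, *Ltf* with 3.15 and 7.89 on the LPS arrays. The part of these cells in the results was not tested, and in these cultures fewer cells of a type and less RNA per cell cannot be told apart.

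Array probes are 60 bases long, and 6 of the 10 genes had 1 probe while *Sqstm1*, *Gabarap*, *Wipi1*, and *Atg7* had more. Those shown first are the brighter *Sqstm1* probe, A_55_P2069714 at chr11:50015985-50016044 (minus strand), the *Becn1* probe, A_51_P489337 at chr11:101151771-101152713 (minus strand), whose 60 bases are spread over 943 bases of the genome, the *Gabarap* probe A_51_P295312 at chr11:69806095-69806154 (plus strand), and the dimmer *Atg7* probe, A_55_P2151762 at chr6:114657539-114657598 (plus strand). They are shown because *Sqstm1* has the largest difference, the *Becn1* probe is split on the genome, and the probes of *Gabarap* and *Atg7* differ in sign or call. Coordinates of probes are those of the array files, build mm9, and the exons under the probes were not analysed here.
Sqstm1 probe: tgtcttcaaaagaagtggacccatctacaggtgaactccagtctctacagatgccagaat
Becn1 probe: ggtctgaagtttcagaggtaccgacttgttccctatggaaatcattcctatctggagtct
Gabarap probe: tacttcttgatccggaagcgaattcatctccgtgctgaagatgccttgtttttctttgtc
Atg7 probe: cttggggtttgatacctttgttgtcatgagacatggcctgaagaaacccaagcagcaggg

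The bases before the annotated start are shown for the genes with the largest differences between groups, *Sqstm1*, *Gabarapl1*, and *Ulk1*, and for *Gabarap*, where a probe lies in them. These are the 250 bases upstream of the RefSeq start in GRCm38.p6, read in the direction of the gene, at chr11:50210821-50211070 (minus strand) for *Sqstm1*, chr6:129532942-129533191 (plus strand) for *Gabarapl1*, chr5:110810082-110810331 (minus strand) for *Ulk1*, and chr11:69991120-69991369 (plus strand) for *Gabarap*. In the *Gabarap* stretch the capitals mark the 60 bases of the probe A_55_P2000718.
Sqstm1 upstream: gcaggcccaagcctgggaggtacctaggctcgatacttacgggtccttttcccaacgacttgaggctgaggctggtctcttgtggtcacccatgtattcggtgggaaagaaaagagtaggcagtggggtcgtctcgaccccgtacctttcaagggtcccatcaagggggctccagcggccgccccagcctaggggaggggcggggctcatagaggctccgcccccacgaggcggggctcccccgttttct
Gabarapl1 upstream: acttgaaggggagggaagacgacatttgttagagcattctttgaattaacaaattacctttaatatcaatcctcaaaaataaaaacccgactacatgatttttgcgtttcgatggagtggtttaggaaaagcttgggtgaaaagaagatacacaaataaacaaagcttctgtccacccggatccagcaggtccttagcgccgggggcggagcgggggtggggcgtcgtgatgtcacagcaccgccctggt
Ulk1 upstream: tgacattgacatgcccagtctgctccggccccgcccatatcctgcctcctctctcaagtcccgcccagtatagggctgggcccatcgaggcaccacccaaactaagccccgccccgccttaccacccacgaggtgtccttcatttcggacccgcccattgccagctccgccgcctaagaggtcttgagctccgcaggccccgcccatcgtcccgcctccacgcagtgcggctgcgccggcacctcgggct
Gabarap upstream: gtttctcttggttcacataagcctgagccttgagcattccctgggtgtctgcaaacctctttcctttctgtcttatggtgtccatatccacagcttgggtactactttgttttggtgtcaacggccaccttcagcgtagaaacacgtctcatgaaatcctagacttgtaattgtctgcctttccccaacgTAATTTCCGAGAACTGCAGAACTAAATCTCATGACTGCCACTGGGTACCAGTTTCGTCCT

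Such windows were given for 8 of the 10 genes, and for *Map1lc3a* and *Becn1* none was used. Their GC content was 63.2% for *Sqstm1*, 69.6% for *Map1lc3b*, 67.2% for both *Ulk1* and *Wipi1*, and 56.4% for *Atg5*, against 46.8% for *Gabarapl1*, 46.4% for *Gabarap*, and 43.2% for *Atg7*. The windows were searched on both strands for the core of the antioxidant response element, TGACNNNGC, which NRF2 binds, for the core of the CLEAR element, TCACGTGA, which TFEB binds, and for part of a κB site, GGAANNNCC. These letters were in 0 of the 8 windows, and in 10.2%, 0.785%, and 15.7%, respectively, of all 32851 windows of the same length. This says only that the letters are not in these 250 bases.

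LPS raised *Sqstm1* and lowered *Ulk1*, *Map1lc3b*, *Atg7*, *Gabarapl1*, and *Atg5*. In LPS+USP7i compared with LPS, *Ulk1*, *Gabarapl1*, and *Sqstm1* were higher. Counting each gene by its brightest probe at an adjusted p under 0.05 from limma, 1 of the 10 genes was higher and 5 were lower with LPS, where 7.99% of 34843 gene names tested were higher and 12.7% were lower. With the inhibitor on top of LPS, 3 were higher and 0 were lower, against 5.42% and 4.29% of all gene names, and at an unadjusted p under 0.05 these numbers were 4 and 0, against 14.2% and 11.7%. The 3 became 0 in a fit of 2 groups and without untreated replicate 1 or 2, and 1 without LPS+USP7i replicate 1. With LPS, the 1 higher gene was lost without untreated replicate 1 or 2 or LPS replicate 1, and the 5 lower became 2, 3, and 3. In LPS+USP7i compared with untreated cells, 2 were higher and 2 were lower, against 6.15% and 8.78%. With 75th percentile scaling, 6 were higher and 1 was lower in this comparison, since *Ulk1*, *Map1lc3a*, *Becn1*, and *Gabarap* newly passed and *Atg5* no longer did. That scaling put the median of all genes at 0.44 in this comparison, and the shares of 6.15% and 8.78% are those of quantile normalization. The 2 higher became 1 in a fit of 2 groups and without any 1 array other than LPS+USP7i replicate 2, and the 2 lower became 0 without untreated replicate 2 and 1 without untreated replicate 1 or LPS+USP7i replicate 1 or 2. All 10 genes were well above background on all arrays, and among the 15620 such gene names the shares higher and lower were 14.1% and 23.9% with LPS, 9.55% and 7.48% with the inhibitor, and 10.8% and 16.5% between LPS+USP7i and untreated cells. The median log2 difference of the 10 genes was −0.58 with LPS, 0.31 with the inhibitor on top of LPS, and 0.12 between LPS+USP7i and untreated cells. Without LPS+USP7i replicate 1 or 2, the latter medians were 0.17 or 0.44 and 0.0049 or 0.27. The last was 0.35 with 75th percentile scaling, where the median of all genes was 0.44. Over these 15620 gene names, the medians in the fit of all arrays were −0.18, 0.05, and −0.08. The comparisons share arrays, so their counts are not independent of each other.

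**Figure D1:**
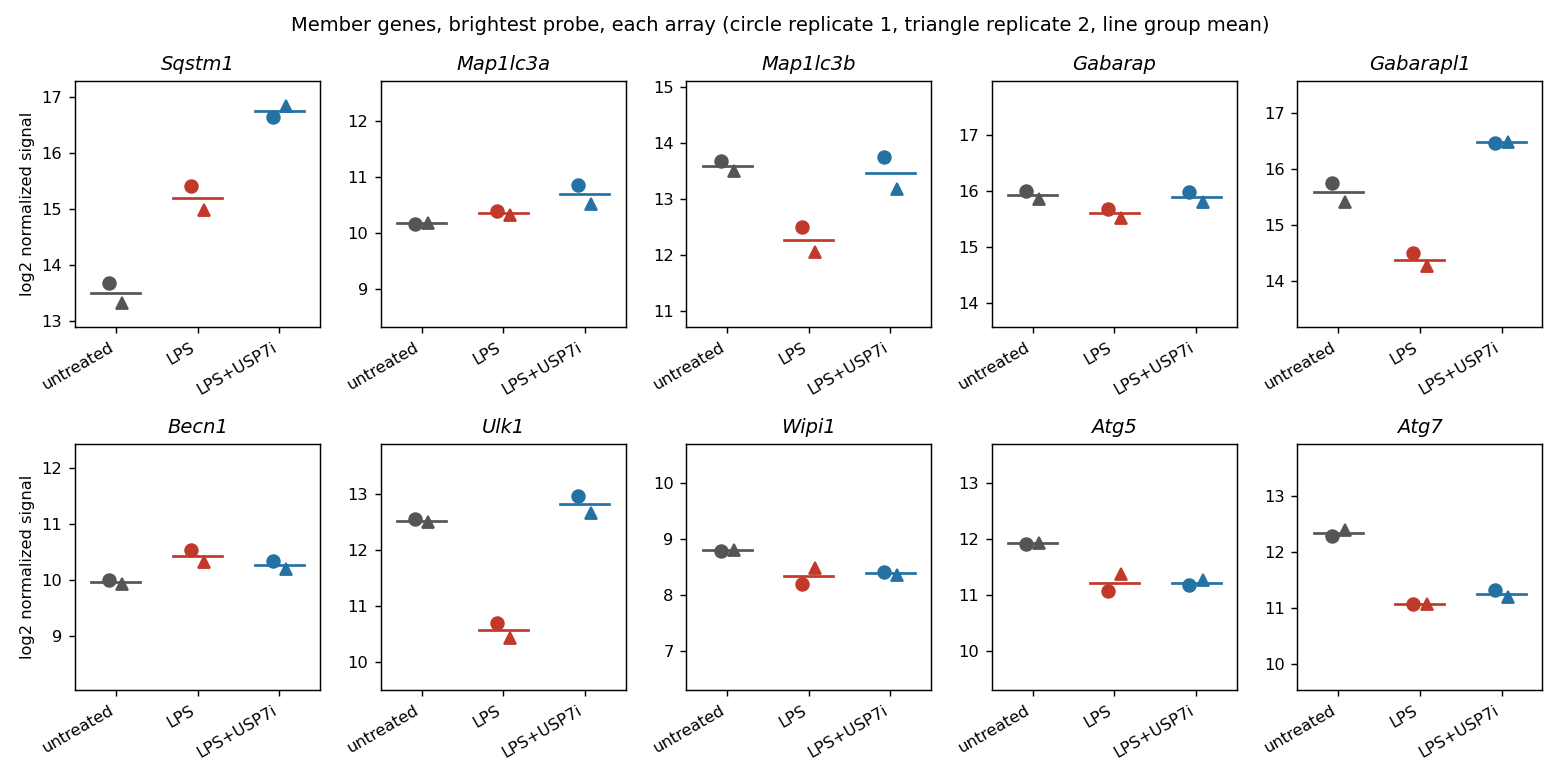
Log2 normalized signal (y axis, the same span in every panel) of the brightest probe of each of the 10 genes on each array of the 3 groups (x axis), with circles for replicate 1, triangles for replicate 2, and lines for group means. *Sqstm1* stands at 13.32 to 13.69, 14.98 to 15.41, and 16.63 to 16.85 in the 3 groups, while *Ulk1*, *Gabarapl1*, and *Map1lc3b* are lowest on the LPS arrays.

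*Sqstm1* encodes the cargo receptor p62. Its brighter probe gave log2 signals of 13.69 and 13.32 (untreated), 15.41 and 14.98 (LPS), and 16.63 and 16.85 (LPS+USP7i). The 3 groups did not overlap and stood in that order on both arrays of each. *Sqstm1* was 3.23-fold higher with LPS than in untreated cells (log2 difference 1.69, standard error 0.22, adjusted p = 0.0152). It was 2.92-fold higher with LPS+USP7i than with LPS (1.55, standard error 0.22, adjusted p = 0.0340) and 9.42-fold higher than in untreated cells (3.24, standard error 0.22, adjusted p = 0.00713). Between the arrays of replicate 1 the difference with the inhibitor was 1.23, and between those of replicate 2 it was 1.86.

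The second *Sqstm1* probe, A_66_P110606 at chr11:50012868-50012927, starts 3117 bases from the first. It gave 6.50 and 6.19 (untreated), 8.76 and 8.36 (LPS), and 10.48 and 10.49 (LPS+USP7i), again without overlap. Its log2 difference was 2.22 with LPS (standard error 0.18, adjusted p = 0.00641) and 1.92 with the inhibitor on top of LPS (standard error 0.18, adjusted p = 0.0190). Both probes passed the threshold in both comparisons, in the fit of all 6 arrays without a block. With the replicate number as a block, the inhibitor difference had an adjusted p of 0.0570 on the brighter probe and 0.0369 on the second. For the brighter probe, leaving out any 1 of the 6 arrays left the inhibitor difference between 1.33 and 1.76 but took its adjusted p to between 0.0732 and 0.103. It was also 0.0817 in a fit of only LPS and LPS+USP7i. The second probe lost its inhibitor call in that fit (adjusted p = 0.0634) and without any 1 array other than LPS replicate 1 (adjusted p at most 0.0724, differences 1.73 to 1.93). Without untreated replicate 1, untreated replicate 2, or LPS replicate 1, the adjusted p of the LPS difference of the brighter probe was above 0.05 as well, at most 0.0741, with differences between 1.48 and 1.87.

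The kinase gene *Ulk1*, whose product starts autophagosome formation, gave 12.54 and 12.50 (untreated), 10.698 and 10.43 (LPS), and 12.96 and 12.66 (LPS+USP7i). Both LPS arrays lay below the other 4. *Ulk1* was 3.88-fold lower with LPS than in untreated cells (log2 difference −1.96, standard error 0.15, adjusted p = 0.00573). It was 4.74-fold higher with LPS+USP7i than with LPS (2.25, standard error 0.15, adjusted p = 0.0131). Between LPS+USP7i and untreated cells the difference was 0.29 (standard error 0.15, adjusted p = 0.377), and with 75th percentile scaling it was 0.52 and passed (adjusted p = 0.0280). The LPS call was kept with any 1 array left out, whereas the inhibitor difference lost its call in a fit of 2 groups or without untreated replicate 1 or 2 (adjusted p at most 0.0590, difference 2.25).

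*Becn1* gave 10.01 and 9.94 (untreated), 10.54 and 10.33 (LPS), and 10.34 and 10.21 (LPS+USP7i). The untreated arrays lay below the LPS arrays, and the LPS and LPS+USP7i arrays overlapped. The log2 difference was 0.46 with LPS (standard error 0.10, adjusted p = 0.0565) and −0.16 with the inhibitor (standard error 0.10, adjusted p = 0.528), and neither passed. The LPS difference of *Becn1* did pass in 5 of 14 alternative analyses. *Wipi1* gave 8.80 and 8.81 (untreated), 8.20 and 8.49 (LPS), and 8.42 and 8.36 (LPS+USP7i) on its brightest probe. With the inhibitor on top of LPS, the 3 probes of this gene gave log2 differences of 0.05, 0.06, and −0.46. Between LPS+USP7i and untreated cells they gave −0.41, −0.36, and −0.94. None of these passed (adjusted p at least 0.0887), but the last did with 75th percentile scaling (−0.81, adjusted p = 0.0190). Its 3 probes had log2 differences of −0.46, −0.42, and −0.47 with LPS, and none passed (adjusted p = 0.0763, 0.0510, and 0.310). Without LPS replicate 2, the brightest *Wipi1* probe did pass, with an adjusted p of 0.0364 and a difference of −0.61, and so it did with normexp background correction (0.0385), 75th percentile scaling (0.0473), and dim probes left out (0.0491).

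*Atg5* and *Atg7*, of the machinery that couples ATG8 proteins to lipid, were lower with LPS and stayed below untreated cells with the inhibitor. *Atg7* gave 12.28 and 12.39 (untreated), 11.07 on both arrays (LPS), and 11.32 and 11.19 (LPS+USP7i). Untreated cells stood apart from both other groups. The log2 difference of *Atg7* was −1.27 with LPS (standard error 0.08, adjusted p = 0.00431), a 2.41-fold lower level, and 0.19 with the inhibitor on top of LPS (standard error 0.08, adjusted p = 0.298). LPS+USP7i remained 1.08 below untreated cells (−1.08, standard error 0.08, adjusted p = 0.00806), a call lost without untreated replicate 2 (adjusted p = 0.0527, difference −1.03). The dimmer *Atg7* probe shown above, whose start lies 152354 bases from that of the brighter one, gave a log2 difference of −0.35 with LPS (standard error 0.11, adjusted p = 0.138), so the probes had the same sign with LPS but only the brighter one passed, and the median of both probes moved by −0.81. With the inhibitor on top of LPS their signs were opposite, with 0.19 and −0.16 (adjusted p = 0.549 for the dimmer probe). Between LPS+USP7i and untreated cells the dimmer probe gave −0.52 and did not pass (adjusted p = 0.0681).

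*Atg5* gave 11.92 and 11.93 (untreated), 11.08 and 11.37 (LPS), and 11.19 and 11.27 (LPS+USP7i). The LPS+USP7i arrays lay between the LPS arrays, and the untreated arrays lay above both groups. The log2 difference was −0.70 with LPS (standard error 0.12, adjusted p = 0.0296) and −0.70 between LPS+USP7i and untreated cells (standard error 0.12, adjusted p = 0.0373). Between LPS+USP7i and LPS it was 0.00 (0.0026, standard error 0.12, adjusted p = 0.9998). Both calls were lost without any 1 of the untreated or LPS+USP7i arrays, with adjusted p values up to 0.135 and 0.158 and differences between −0.71 and −0.69 and between −0.74 and −0.66. They were also lost with 75th percentile scaling (−0.43, adjusted p = 0.0931, and −0.52, adjusted p = 0.0580), and the LPS call was lost in a fit of 2 groups (adjusted p = 0.0669).

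The 4 genes of ATG8 proteins differed from each other in how they moved. *Gabarapl1* gave 15.76 and 15.43 (untreated), 14.51 and 14.27 (LPS), and 16.48 and 16.49 (LPS+USP7i). The LPS arrays were the lowest and the LPS+USP7i arrays the highest. *Gabarapl1* was 2.30-fold lower with LPS (log2 difference −1.20, standard error 0.15, adjusted p = 0.0152) and 4.26-fold higher with LPS+USP7i than with LPS (2.09, standard error 0.15, adjusted p = 0.0143). It was 1.85-fold higher with LPS+USP7i than in untreated cells (0.89, standard error 0.15, adjusted p = 0.0382), a call lost without any 1 array (adjusted p 0.0689 to 0.129). With 75th percentile scaling the LPS difference was −0.64 (adjusted p = 0.0295). The LPS call was lost without untreated replicate 1, LPS replicate 1, or LPS replicate 2 (adjusted p at most 0.0624, differences −1.32 to −1.04). The inhibitor call was lost without untreated replicate 1 or 2 or LPS+USP7i replicate 1 (adjusted p at most 0.0559, differences 2.09 to 2.10) and in a fit of 2 groups.

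*Map1lc3b*, which encodes LC3B, the common marker protein of autophagosomes, was read by 10 spots of 1 probe. It gave 13.67 and 13.49 (untreated), 12.48 and 12.05 (LPS), and 13.75 and 13.17 (LPS+USP7i). The LPS arrays lay below all others, and the untreated and LPS+USP7i arrays overlapped. The log2 difference was −1.31 with LPS (standard error 0.27, adjusted p = 0.0451), a 2.49-fold lower level that lost its call without any 1 untreated or LPS array (adjusted p at most 0.180, differences −1.53 to −1.10). With 75th percentile scaling it was −0.86 (adjusted p = 0.0312). With the inhibitor on top of LPS it was 1.19 (standard error 0.27) and missed the threshold (adjusted p = 0.0833), although the LPS+USP7i level was higher on both arrays. The adjusted p was 0.0178 after normexp background correction, 0.0239 with dim probes left out, and 0.0461 with the replicate number as a block.

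*Map1lc3a*, which encodes LC3A, gave 10.15 and 10.18 (untreated), 10.38 and 10.31 (LPS), and 10.86 and 10.50 (LPS+USP7i). The groups stood in this order without overlap, but by less than 1 log2 unit. Its log2 difference was 0.18 with LPS (standard error 0.14, adjusted p = 0.511) and 0.33 with the inhibitor (standard error 0.14, adjusted p = 0.279). The inhibitor difference was 0.16 without LPS+USP7i replicate 1 and 0.51 without LPS+USP7i replicate 2. Between LPS+USP7i and untreated cells it was 0.52 (standard error 0.14, adjusted p = 0.105), and without LPS+USP7i replicate 2 it was 0.69 with an adjusted p of 0.0365. With 75th percentile scaling it was 0.55 and passed as well (adjusted p = 0.0180), whereas without LPS+USP7i replicate 1 it was 0.34.

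*Gabarap*, the namesake of its branch of the ATG8 family, gave 15.999 and 15.85 (untreated), 15.68 and 15.52 (LPS), and 15.97 and 15.79 (LPS+USP7i) on its brightest probe, A_55_P2010223. The LPS arrays lay below the others by a small margin. The log2 difference was −0.32 with LPS (standard error 0.11, adjusted p = 0.158) and 0.28 with the inhibitor (standard error 0.11, adjusted p = 0.257). The second probe, shown above, moved by −0.42 with LPS (standard error 0.09, adjusted p = 0.0545) and 0.22 with the inhibitor (standard error 0.09, adjusted p = 0.293). With 75th percentile scaling the LPS differences of these probes were 0.23 and 0.17, so their sign depends on the scaling.

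The third *Gabarap* probe, A_55_P2000718, had the opposite sign with LPS under quantile normalization, and the same sign, 0.74, under 75th percentile scaling. It gave 6.62 and 6.90 (untreated), 7.51 and 7.48 (LPS), and 7.28 and 7.73 (LPS+USP7i). Its log2 difference was 0.74 with LPS (standard error 0.19, adjusted p = 0.0843) and 0.01 with the inhibitor (standard error 0.19, adjusted p = 0.9998). In the fit of all 6 quantile-normalized arrays without a block, none of the 3 probes passed in either comparison. A_51_P295312 passed with LPS in some alternatives (adjusted p down to 0.0387, and 0.0418 with the replicate number as a block). A_55_P2000718 passed with LPS under 75th percentile scaling (adjusted p = 0.0237). This probe matches, over all 60 bases and on the strand of the gene, the bases from 60 to 1 before the RefSeq start of *Gabarap*, as marked in capitals above, so it lies outside the gene as RefSeq annotates it.

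**Figure D2:**
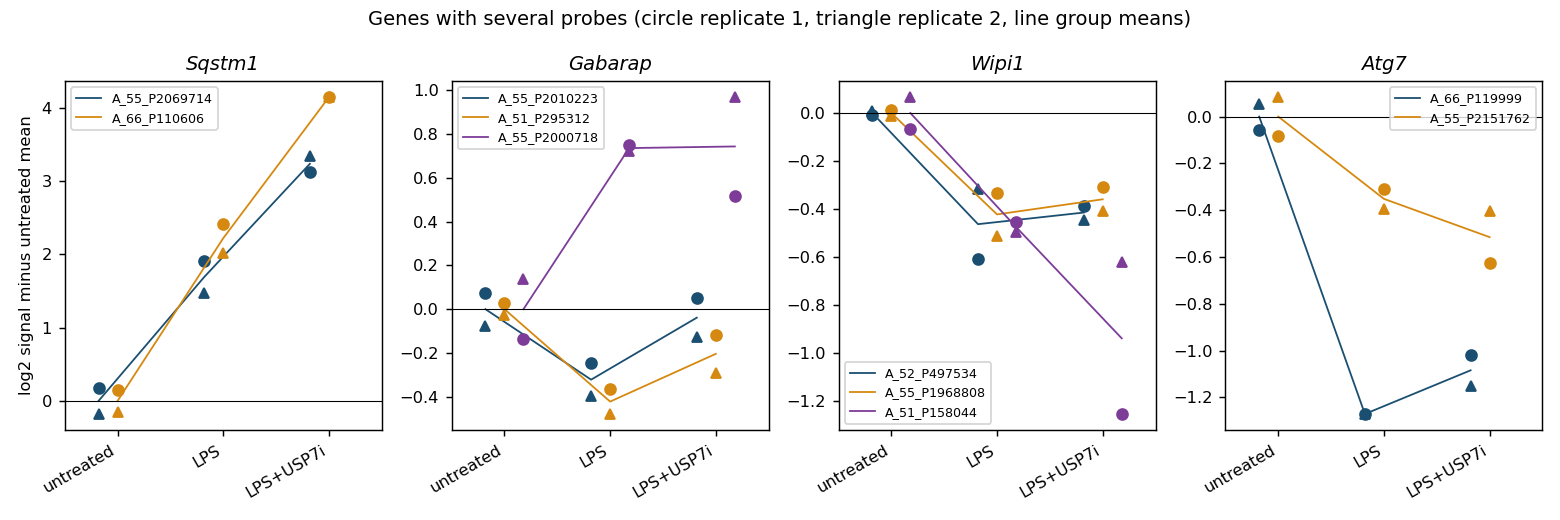
Log2 signal minus the mean of the untreated arrays of the same probe (y axis, own range in each panel) for the 4 genes with several probes, by group (x axis), with circles for replicate 1, triangles for replicate 2, and lines through group means. Both *Sqstm1* probes rise across the groups, to 3.24 and 4.14, whereas A_55_P2000718 of *Gabarap* lies 0.74 above its untreated mean with LPS while the group means of the other probes lie below theirs, by differences of −0.32 and −0.42 that become 0.23 and 0.17 with 75th percentile scaling.

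The 10 genes thus fell into different patterns, which the plot of differences sets side by side. *Sqstm1* was higher with LPS and higher again with the inhibitor. *Ulk1* and *Gabarapl1* were lower with LPS and higher with LPS+USP7i than with LPS, by 2.25 and 2.09, and the LPS arrays are shared by these comparisons. For *Atg5* and *Atg7* the LPS+USP7i level was below that of untreated cells, and its difference from LPS did not pass. *Map1lc3b* was lower with LPS, and its difference of 1.19 with the inhibitor did not pass. *Map1lc3a*, *Becn1*, *Gabarap*, and *Wipi1* passed in none of the 3 comparisons in the fit of all 6 arrays, although each passed in some alternative analysis.

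**Figure D3:**
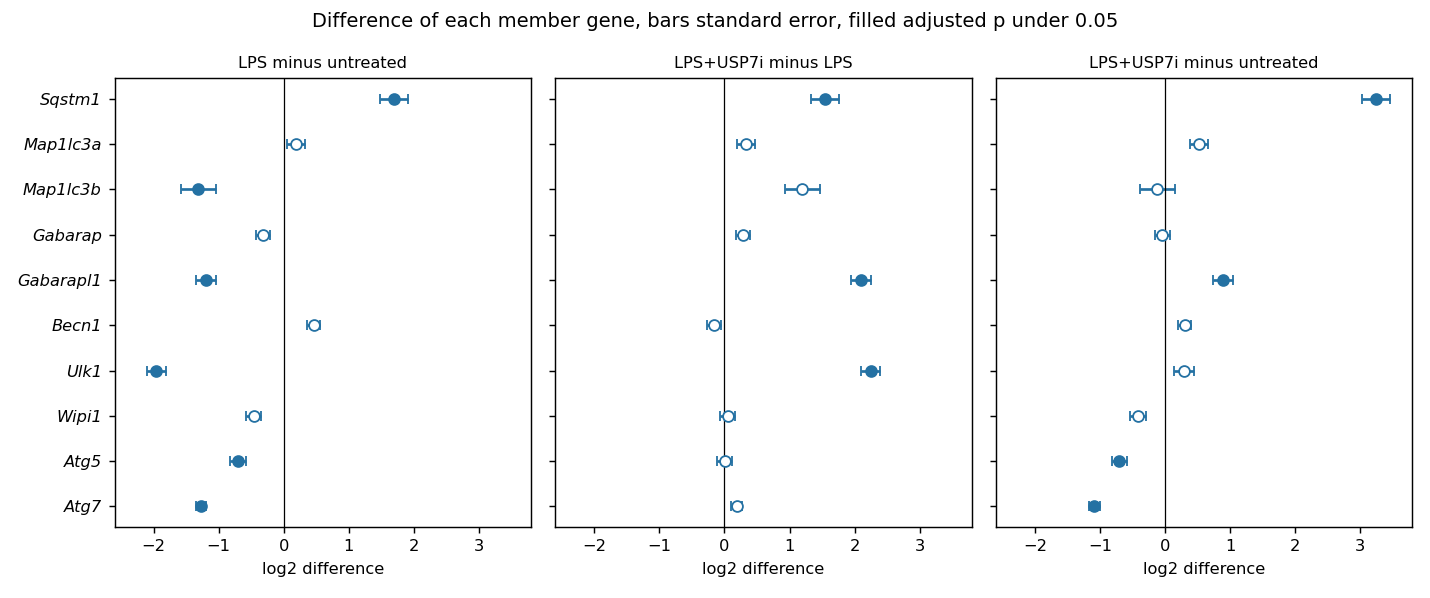
Log2 difference (x axis) of the brightest probe of each gene (y axis) in the 3 comparisons, with bars for the standard error from limma and filled points where the adjusted p was under 0.05. With LPS, 1 gene is filled to the right of 0 and 5 to the left, and with LPS+USP7i against LPS, *Sqstm1*, *Gabarapl1*, and *Ulk1* are filled, all to the right.

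Beside the 10 genes stood 56 other genes of autophagy, grouped by role, all 56 of which were matched on the array. The list was chosen with earlier results of these data known, so the shares beside its counts are not a test. With LPS, 2 of the 56 were higher and 30 were lower, with a median log2 difference of −0.57. Of the 56, 53 were well above background on all arrays, where 14.1% of gene names were higher and 23.9% lower. With LPS+USP7i compared with LPS, 12 were higher and 3 were lower, with a median of 0.28, against 9.55% and 7.48% of such gene names. Compared with untreated cells, 4 were higher and 20 were lower, with a median of −0.37, against 10.8% and 16.5%. All 4 other genes of the initiation complex were lower with LPS, and 2 of the 4 were higher with the inhibitor. Of these, *Atg13*, a subunit that binds ULK1, fell by 1.39 with LPS (standard error 0.07, adjusted p = 0.00339) and was 0.79 higher with the inhibitor (standard error 0.07, adjusted p = 0.0172).

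Of 7 further genes of the class III PI3-kinase complex, 5 were lower with LPS, and of the 7 genes of membrane supply, 2 were. Of the gene names well above background on all arrays, 23.9% were lower with LPS. With the inhibitor on top of LPS, 0 of these 14 genes passed in limma, and 5 were higher and 2 lower at an unadjusted p under 0.05, against 14.2% and 11.7% of all gene names and 24.1% and 19.6% of those well above background on all arrays, as 12 of the 14 were. Of the 11 other cargo receptor genes, all well above background, 7 were lower with LPS, against the 23.9% above. With the inhibitor 4 were higher and 1 was lower, against 9.55% and 7.48% of such gene names. Of 10 other genes of conjugation and ATG8 processing, 1 was higher and 3 were lower with LPS, against 14.1% and 23.9%. With the inhibitor, 2 of them were higher and 1 was lower. Of 6 genes of fusion with lysosomes, 4 were lower with LPS and 2 were higher with the inhibitor. Of 11 regulators, 1 was higher and 5 were lower with LPS, and 2 were higher and 1 was lower with the inhibitor. *Nbr1*, a cargo receptor that binds p62, gave 9.09 and 9.08 (untreated), 7.61 and 7.54 (LPS), and 9.21 and 9.02 (LPS+USP7i). *Nbr1* thus fell with LPS (−1.51, standard error 0.09, adjusted p = 0.00403) where *Sqstm1* rose, and was 1.54 higher with the inhibitor (standard error 0.09, adjusted p = 0.0116). *Nbr1*, *Atg13*, *Atg12*, and *Rubcn*, and *Keap1* and *Nfe2l2* further on, were chosen for naming after their values were seen.

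By the rule for named genes, which takes only genes past the threshold, the largest increases with LPS included 1 autophagy gene, *Atg16l1*, a partner of the ATG5–ATG12 conjugate, which rose by 1.18 (standard error 0.10, adjusted p = 0.00697) and was 0.91 lower with the inhibitor (−0.91, standard error 0.10, adjusted p = 0.0242). *Atg12* itself went the other way, with −1.18 with LPS (standard error 0.08, adjusted p = 0.00478) and 1.22 with the inhibitor (standard error 0.08, adjusted p = 0.0127). The largest decreases with LPS among genes past the threshold were those of *Tfeb*, *Plekhm1*, and *Foxo3*. *Tfeb*, a transcription factor of lysosomal and autophagy genes, gave 9.84 and 9.71 (untreated), 6.46 and 6.39 (LPS), and 8.22 and 7.39 (LPS+USP7i). It was 10.2-fold lower with LPS (−3.35, standard error 0.30, adjusted p = 0.00731), and the 1.39 by which it was higher with the inhibitor did not pass (standard error 0.30, adjusted p = 0.0796).

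*Plekhm1*, an adaptor of fusion with lysosomes, fell by 2.37 with LPS (standard error 0.10, adjusted p = 0.00299) and was 1.41 higher with the inhibitor (standard error 0.10, adjusted p = 0.0135). *Foxo3*, a transcription factor that acts on autophagy genes, fell by 2.03 with LPS (standard error 0.27, adjusted p = 0.0164) and was 3.20 higher with the inhibitor (standard error 0.27, adjusted p = 0.0163). Among the genes that passed, the largest decreases with the inhibitor, besides *Atg16l1*, were those of *Wdfy3*, which encodes an adaptor of aggregate clearance, by 0.92 (standard error 0.07, adjusted p = 0.0151), and *Mtor*, which encodes the kinase that holds ULK1 inactive when nutrients are plentiful, by 0.86 (standard error 0.07, adjusted p = 0.0163). As with *Atg5* and *Atg7*, *Rubcn*, which encodes a subunit of a class III PI3-kinase complex, was 1.72 lower with LPS (−1.72, standard error 0.14, adjusted p = 0.00634) and gave 0.01 with the inhibitor (standard error 0.14, adjusted p = 0.9995).

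**Figure D4:**
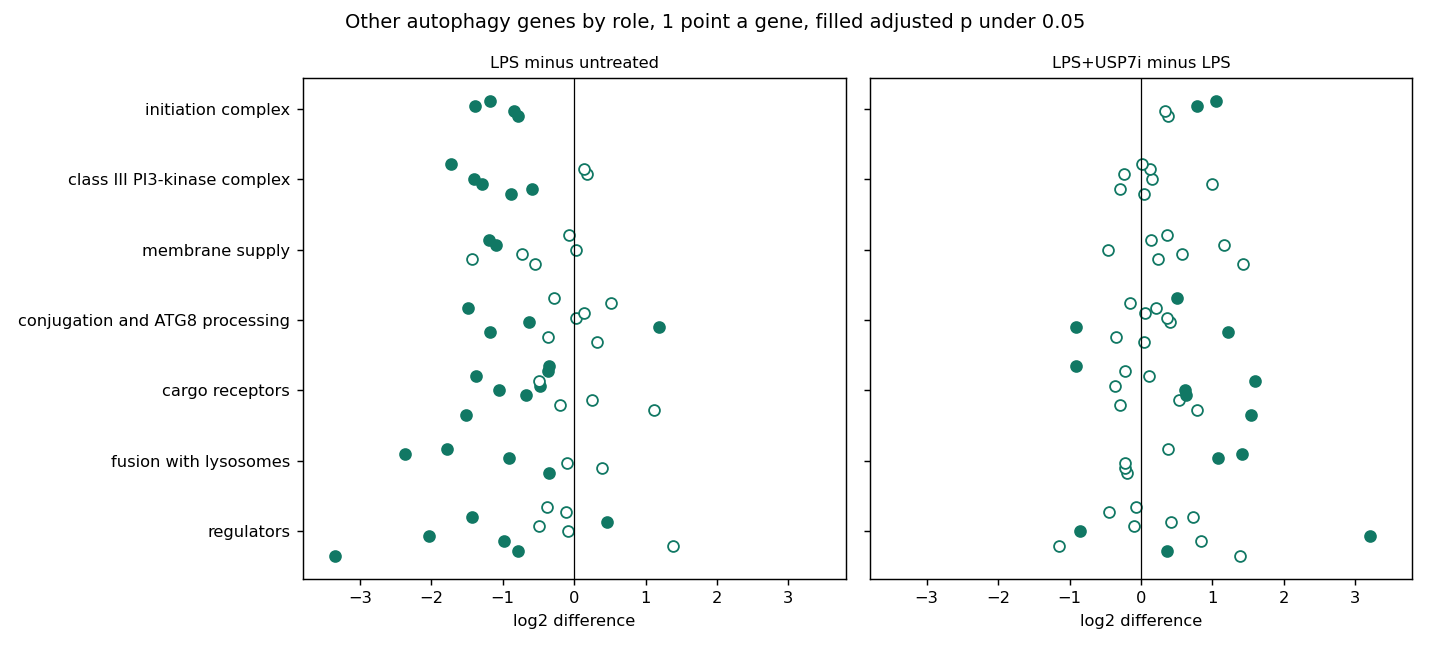
Log2 difference (x axis) of each of the 56 other autophagy genes, 1 point a gene, by role (y axis), with LPS against untreated cells on the left and LPS+USP7i against LPS on the right, filled where the adjusted p was under 0.05. On the left 30 filled points lie below 0 and 2 above, and on the right 12 lie above 0 and 3 below.

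Because p62 binds KEAP1, 9 genes of NRF2 and KEAP1 were set beside *Sqstm1*. This list was chosen with earlier results of these data known, so the shares beside its counts are a scale and not a test. With LPS, 3 of the 9 were higher, and with the inhibitor on top of LPS 6 were higher, with medians of −0.25 and 2.20, against 14.1% and 9.55% of the gene names well above background on all arrays, as all 9 were. In LPS+USP7i compared with untreated cells, 6 were higher, with a median of 3.19, against 10.8%. The largest increases among those that passed with the inhibitor were those of *Hmox1* (heme oxygenase), *Srxn1* (sulfiredoxin), and *Gclc* (a subunit of the enzyme that starts glutathione synthesis). *Hmox1* was 23.0-fold higher with LPS+USP7i than with LPS (4.52, standard error 0.26, adjusted p = 0.0114), *Srxn1* 15.5-fold (3.96, standard error 0.29, adjusted p = 0.0145), and *Gclc* 14.1-fold (3.82, standard error 0.17, adjusted p = 0.0104).

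With LPS alone, *Hmox1* and *Gclc* did not rise as *Sqstm1* did. The LPS arrays of *Hmox1* gave 13.86 and 13.30 against 14.66 and 14.24 in untreated cells, and those of *Gclc* gave 9.58 and 9.30 against 10.28 and 10.06, with differences that did not pass (−0.87, adjusted p = 0.110, and −0.73, adjusted p = 0.0597). Those that rose with LPS were *Slc7a11*, *Txnrd1*, and *Keap1*. *Slc7a11*, the cystine transporter, rose by 3.68 with LPS (standard error 0.34, adjusted p = 0.00766) and was 2.20 higher with the inhibitor (standard error 0.34, adjusted p = 0.0406). *Txnrd1*, thioredoxin reductase, rose by 1.29 with LPS (standard error 0.08, adjusted p = 0.00420) and was 1.90 higher with the inhibitor (standard error 0.08, adjusted p = 0.0104). *Keap1* rose by 0.51 with LPS (standard error 0.09, adjusted p = 0.0300). *Nfe2l2*, the gene of NRF2, moved by −0.06 with LPS and 0.70 with the inhibitor, and neither passed (adjusted p = 0.959 and 0.164).

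**Figure D5:**
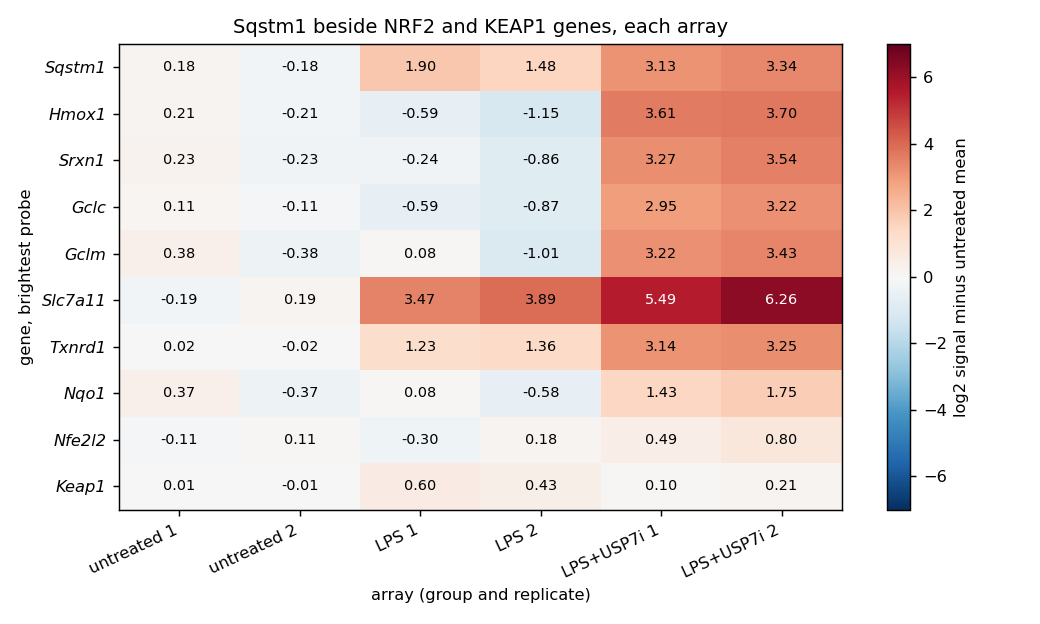
Log2 signal minus the mean of the untreated arrays (color and printed value) for *Sqstm1* and 9 genes of NRF2 and KEAP1 (y axis, brightest probe) on each of the 6 arrays (x axis). *Sqstm1*, *Slc7a11*, and *Txnrd1* are above 1.2 on both LPS arrays and higher on the LPS+USP7i arrays, whereas *Hmox1*, *Srxn1*, and *Gclc* are below 0 on both LPS arrays and at 2.95 or more with LPS+USP7i.

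The genes whose levels over the 6 arrays were most like those of *Sqstm1* were sought among 11652 RefSeq-named genes well above background on all arrays, by the Euclidean distance between log2 values centred on each gene's mean. The 5 nearest were *Gm7160* (distance 0.46), *Ezr* (0.46), *Pgf* (0.57), *Unc5b* (0.60), and *Txnrd1* (0.64). *Gm7160*, an unnamed gene model, gave 6.13 and 6.36 (untreated), 8.04 and 7.80 (LPS), and 9.46 and 9.49 (LPS+USP7i). *Ezr*, which encodes the membrane linker ezrin, had log2 differences of 1.70 with LPS and 1.18 with the inhibitor, and *Pgf*, placental growth factor, had 1.54 and 1.58. Of these 5, only *Txnrd1*, the last, was also in the list of NRF2 and KEAP1, and a shared cause was not tested. The ranking is over 6 arrays of 1 slide and carries no test.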

How the data were processed

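RNA of BMDMs (6 arrays, 2 per group, groups taken from the labels) was labeled with Cy3 and hybridized to 1-color Agilent arrays. For every array the authors deposited spot intensities from Agilent Feature Extraction, with background already corrected by that software, and for the series they deposited log2 values that had been normalized across arrays. Their methods state limma, quantile normalization, and an adjusted p of 0.05, and a background correction is not given in the sources used here. Intensities measure relative brightness of a probe, so levels of different probes were compared only to choose the brightest probe of a gene, and signals were added up only over marker lists.

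Here, log2 processed signals were quantile-normalized after removal of outlier spots (119 to 172 per array), and repeated spots of a probe were averaged. Quantile normalization gives all arrays the same distribution of signal, so a shift of all genes together would not be seen. A linear model of the 3 groups was fitted to all 6 arrays and all probes with limma 3.58.1 in R 4.3.3, with 3 residual and 1.048 prior degrees of freedom and Benjamini-Hochberg adjustment over all probes. The fit was checked on simulated data. With 2 arrays against 2, the smallest p of an exact two-sided permutation test is 0.333. Values are log2 signals, differences are log2 with the standard error of the fit, and the brightest probe stood for a gene. Genes of the fixed lists were named by symbol, RefSeq synonym, or accession. The members, lists, and tests were chosen with earlier results of these data known. Besides the members, the 3 genes with the largest increase and decrease among list genes past the threshold and well above background on both arrays of a group in each of the LPS and inhibitor comparisons, the 5 most like *Sqstm1*, and the cytokine genes *Tnf*, *Il6*, and *Il1b* were to be named. With LPS, *Il6* and *Il1b* rose by 11.87 and 10.04. Upstream sequences came from RefSeq tables of GRCm38.p6, used for sequence only. A planned comparison of ATG8 protein sequences was not run. Alternatives were another scaling, background correction, the deposited log2 table, other filters, a trended prior, the replicate number as a block, fits of 2 groups, and leaving out each array.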

Additional observations from a re-analysis of the deposited data

How the results depend on the processing

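Of 420 tested values of single genes under alternatives, 347 kept their direction and side of the threshold. Another 44 kept the direction but no longer passed, 16 kept the direction and newly passed, and 13 changed sign. Among the 13, *Gabarap* between LPS+USP7i and untreated cells also newly passed, with 75th percentile scaling (adjusted p = 0.0401). Only values that passed in the report had a call to lose, so 44 of 420 does not measure how stable the calls are. Leaving out dim probes, the trended prior, the replicate block, and fits of only the groups compared left each difference unchanged. These alternatives therefore could not change a direction. The same held for leaving out an array of the group not compared. Of 12 medians over the probes of a gene, which carry no test, 7 stayed within the spread between replicates and 5 moved beyond it. Scaling to the 75th percentile shifted the median of all genes by 0.40 with LPS and 0.44 between LPS+USP7i and untreated cells, against 0.0024 with the inhibitor. *Gabarap* was then 0.23 with LPS and 0.36 between LPS+USP7i and untreated cells, *Map1lc3b* was 0.17 in the latter comparison, and *Atg5* was −0.093 with the inhibitor. The difference of *Atg5* with the inhibitor was −0.036 with normexp and −0.084 with the deposited log2 table, where that of *Wipi1* was −0.0019. With 1 array left out, the differences ranged from −0.15 to 0.15 for *Atg5* and from −0.10 to 0.19 for *Wipi1* with the inhibitor, and from −0.13 to 0.052 for *Gabarap* and −0.41 to 0.17 for *Map1lc3b* between LPS+USP7i and untreated cells.

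The number of the 10 genes higher with LPS, 1 in the report, was 2 with 75th percentile scaling, normexp, dim probes left out, a trended prior, and the replicate number as a block, and 0 to 1 with 1 array left out. The gene added was *Becn1*. With the inhibitor, *Map1lc3b* was added with normexp and with dim probes left out, which gave 4 genes higher. The number higher with the inhibitor, 3 in the report, was 0 in a fit of 2 groups and 0 to 2 with 1 array left out. The number higher in LPS+USP7i than in untreated cells, 2 in the report, was 6 with 75th percentile scaling, 1 in a fit of 2 groups, 1 with a log2 difference of at least 1, and 1 to 2 with 1 array left out. The number lower was 2 to 4 for LPS with 1 array left out, and for LPS+USP7i against untreated cells 1 with 75th percentile scaling, 1 with a log2 difference of at least 1, and 0 to 2 with 1 array left out. The median difference between LPS+USP7i and untreated cells was 0.35 with 75th percentile scaling and 0.0049 to 0.27 with 1 array left out, and that with the inhibitor was 0.17 to 0.44.

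The replicate numbers pair no samples by the labels, although the differences between replicates correlated across probes with r of 0.40 to 0.47 between groups. With the replicate block, the inhibitor difference of *Sqstm1* had an adjusted p of 0.0570 on the brighter probe and 0.0369 on the other, while *Becn1* with LPS (0.0392) and *Map1lc3b* with the inhibitor (0.0461) newly passed, and no other call by the brightest probe of a gene changed. Among the other probes, *Gabarap* A_51_P295312 (0.0418) and *Wipi1* A_55_P1968808 (0.0486) newly passed with LPS.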
